A study of Homo sapiens with 5 samples.

Results

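The genes described here encode 36 proteins that control promoter-proximal pausing of RNA polymerase II, its release and its passage through genes. They were taken from a fixed list of gene symbols, all 36 of which were found among the 20037 protein-coding genes of the RefSeq table for GRCh38.p14. A gene was counted as bound by a protein if a deposited peak lay within 1 kb of either of its ends. The peaks came from chromatin immunoprecipitation with sequencing (ChIP-seq) of MIA PaCa-2 cells, a human pancreatic cancer cell line, with 1 library in each of 5 groups. MED30 and MED17, subunits of the Mediator complex, were mapped in parental cells under normal culture. MYC was mapped in MIA PaCa-2 cells with a hairpin RNA against MED30 that doxycycline induces (the shMED30 line), with 3 days of doxycycline (given as 0.5 mg/ml in the series text) and without doxycycline, and in parental cells under normal culture. The labels do not say whether the shMED30 line is a clone or a pool, and doxycycline in a line without the hairpin was not analysed here. Mediator chromatin was fixed with disuccinimidyl glutarate (2 mM, 20 min) and then 1% formaldehyde (10 min), MYC chromatin with formaldehyde alone.

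After initiation, polymerase II pauses a short way into most active genes, held by the negative elongation factor NELF and by DSIF. The kinase P-TEFb, made of CDK9 and a cyclin T, phosphorylates both factors and the polymerase tail and so releases the polymerase. P-TEFb is stored in an inactive particle built on the 7SK RNA and is delivered to genes by BET bromodomain proteins and by the super elongation complex. MYC and Mediator are each known to take part in bringing P-TEFb to promoters.

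The lists held 12040 peaks for MED30, 13172 for MED17, 4621 for MYC with doxycycline, 7158 for MYC without doxycycline and 14331 for parental MYC. Depth, read from the lists as the lowest local background at any peak, was 1.65, 1.60, 0.186, 0.310 and 2.56 fragments in the same order. The fold enrichment of a peak is the authors' ratio. It was matched as (pileup + 1)/(background + 1), from the fragment pileup at the summit and the local background. In the shallow lists of the shMED30 line the added count weighs heavily, so folds from lists of different depth are not on a common scale. A percentile is the rank of a fold within its own list. Since each group is 1 library, differences have no replicate check and were not tested. Intervals are exact (Clopper-Pearson) 95% binomial intervals, which cover counting error only. Of the markers looked up for the cell line, the epithelial keratin genes KRT8, KRT18 and KRT19 and the mesenchymal genes VIM and ZEB1 had Mediator peaks, whereas the epithelial genes EPCAM and CDH1 had none. KRT8 and KRT18 had the same folds (4.46 for MED30 and 3.76 for MED17), so they may not be separate observations. None of the 9 blood, fibroblast and acinar genes had a peak in any list.

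Most of the elongation genes were bound in parental cells. MED30 had a peak at 31 of the 36 genes (86.1%, 70.5 to 95.3%), against 41.7% of all protein-coding genes. MED17 also had a peak at 31 (86.1%, 70.5 to 95.3%), against 47.9% of all genes, and MYC at 26 (72.2%, 54.8 to 85.8%), against 39.0%. All of MED30, MED17 and MYC were present at 23 genes (63.9%, 46.2 to 79.2%), against 31.2% of all genes. The background was not limited to expressed genes, so these shares do not separate the elongation genes from active genes in general. The median fold at the bound elongation genes was 5.52 for MED30, 5.75 for MED17 and 4.92 for parental MYC, where all bound genes had medians of 5.05, 5.19 and 4.68. Lists of unequal length were also reduced to the same number of strongest peaks, 4621 each. MED30 was then at 19 of the 36 genes (18.7% of all genes), MED17 at 20 (19.3%), MYC at 2 with doxycycline (4.71%), at 6 without (7.20%) and at 10 in parental cells (14.3%), and all of MED30, MED17 and parental MYC at 6 (3.76%). Among the upper 50% of each list by fold the counts were 22 for MED30 (24.1% of all genes), 24 for MED17 (27.3%), 2 for MYC with doxycycline (3.45%), 6 without (6.08%), 19 in parental cells (21.9%) and 11 for all of MED30, MED17 and parental MYC (8.46%).

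**Figure D1:**
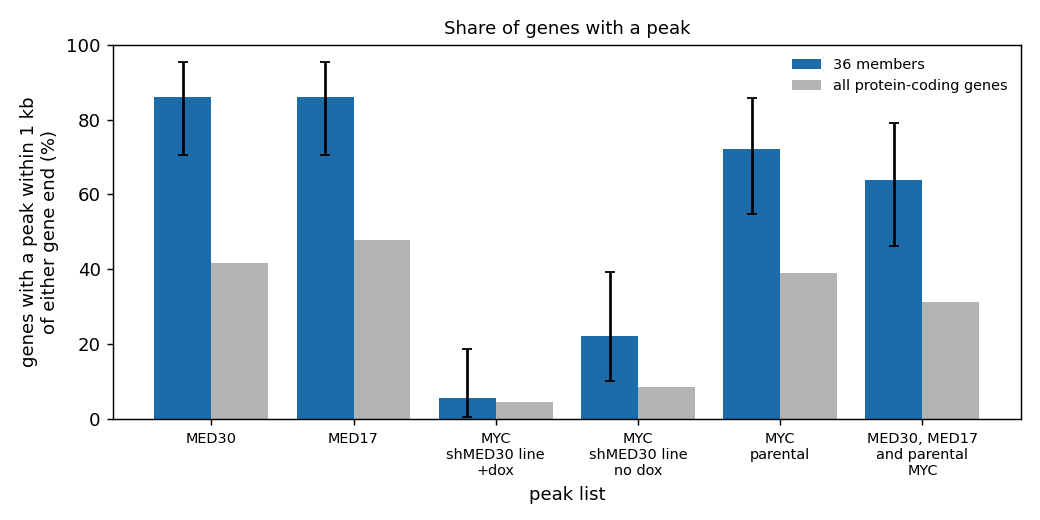
Share of genes (y axis, percent) with a peak within 1 kb of either end in each list, and in the MED30, MED17 and parental MYC lists together (x axis), for the 36 elongation genes (blue, with exact 95% binomial intervals) and for all 20037 protein-coding genes (grey). The blue bars stand at 86.1% for each Mediator subunit and 72.2% for parental MYC, and at 5.56% with and 22.2% without doxycycline in the shMED30 line.

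The binding was at gene starts. Strand was known for 34 of the 36 genes, all but ELL2 and CDC73, from the RefSeq promoter table. All 29 of these with a MED30 peak, all 29 with a MED17 peak and all 24 with a parental MYC peak had a peak within 1 kb of the gene start, against 97.4%, 97.7% and 96.9% of all bound genes. The strongest peak covered the start itself at 27 of 29 genes for MED30 (79.0% of all bound genes), 24 of 29 for MED17 (63.7%) and 21 of 24 for MYC (65.1%). SSRP1 was the only gene of the 34 that also had peaks at its other end (MED30 fold 4.80, MED17 4.42, parental MYC 5.57). The promoters were rich in CpG dinucleotides, with a median of 29.0 per 300 bp in the elongation genes against 22.0 in the 15842 protein-coding genes with a listed promoter.

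Several of these promoters are shared with another gene, so that a peak there cannot be given to either gene alone. Of the 34 genes, 9 had another protein-coding gene starting on the opposite strand within 1 kb upstream (26.5%, 12.9 to 44.4%), against 10.1% of all genes with a listed promoter. The partners were SDF2 for SUPT6H (11 bp upstream), MAPK6 for LEO1 (47 bp), P2RX3 for SSRP1 (58 bp), ZCWPW1 for MEPCE (87 bp), SERF2 for ELL3 (120 bp), SKIC2 for NELFE (204 bp), CIMIP2A for NELFB (205 bp), ZGRF1 for LARP7 (234 bp) and MED29 for PAF1 (272 bp). MED29 is itself a Mediator subunit gene.

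Promoter sequences were searched for the E-box CACGTG, the recognition sequence of MYC with its partner MAX, and for its variant CACGCG, on both strands. Those that carry CACGTG are printed below for MLLT1, MEPCE, AFF4, CCNT1 and SUPT16H, which had a parental MYC peak, and for CDK7, which had none. BRD2, which carries neither motif there, is printed because its MYC peak was present in all 3 MYC lists. Each run of 300 bases, from RefSeq (GRCh38.p14), covers 250 bases before to 50 after a transcript start, 5′ to 3′, with CACGTG and CACGCG (or its reverse complement CGCGTG) in capitals.
MLLT1 promoter, chr19:6279926-6280225, minus strand: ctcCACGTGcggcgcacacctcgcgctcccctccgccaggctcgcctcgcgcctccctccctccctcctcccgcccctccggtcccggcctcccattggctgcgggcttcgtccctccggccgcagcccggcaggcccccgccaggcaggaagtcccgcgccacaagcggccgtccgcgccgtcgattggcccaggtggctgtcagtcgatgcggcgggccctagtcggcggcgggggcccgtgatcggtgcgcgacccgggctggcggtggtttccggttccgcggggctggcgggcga
MEPCE inner promoter, chr7:100429197-100429496, plus strand: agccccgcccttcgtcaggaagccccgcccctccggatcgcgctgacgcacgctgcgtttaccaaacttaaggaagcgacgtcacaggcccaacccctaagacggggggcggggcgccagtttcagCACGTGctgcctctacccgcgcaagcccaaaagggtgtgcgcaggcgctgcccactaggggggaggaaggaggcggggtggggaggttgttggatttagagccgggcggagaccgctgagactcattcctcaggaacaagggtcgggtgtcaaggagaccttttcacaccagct
AFF4 promoter, chr5:132963585-132963884, minus strand: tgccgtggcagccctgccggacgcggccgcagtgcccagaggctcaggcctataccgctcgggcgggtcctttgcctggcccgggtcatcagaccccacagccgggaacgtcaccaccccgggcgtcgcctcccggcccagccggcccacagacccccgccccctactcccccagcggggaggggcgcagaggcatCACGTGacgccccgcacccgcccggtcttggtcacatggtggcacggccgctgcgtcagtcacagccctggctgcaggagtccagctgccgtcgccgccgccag
CCNT1 promoter, chr12:48716658-48716957, minus strand: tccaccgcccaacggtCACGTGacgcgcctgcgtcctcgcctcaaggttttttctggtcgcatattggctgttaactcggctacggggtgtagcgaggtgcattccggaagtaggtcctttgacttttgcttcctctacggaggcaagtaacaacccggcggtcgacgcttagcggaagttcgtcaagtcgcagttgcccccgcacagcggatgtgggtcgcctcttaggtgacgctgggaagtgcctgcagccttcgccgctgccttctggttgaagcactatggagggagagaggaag
SUPT16H promoter, chr14:21383970-21384269, minus strand: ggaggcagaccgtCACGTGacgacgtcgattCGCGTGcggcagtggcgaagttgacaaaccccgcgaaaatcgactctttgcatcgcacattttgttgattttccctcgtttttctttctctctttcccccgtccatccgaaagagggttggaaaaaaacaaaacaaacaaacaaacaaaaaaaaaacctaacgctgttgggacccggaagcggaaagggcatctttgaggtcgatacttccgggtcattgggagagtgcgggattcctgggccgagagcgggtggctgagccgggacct
CDK7 promoter, chr5:69234636-69234935, plus strand: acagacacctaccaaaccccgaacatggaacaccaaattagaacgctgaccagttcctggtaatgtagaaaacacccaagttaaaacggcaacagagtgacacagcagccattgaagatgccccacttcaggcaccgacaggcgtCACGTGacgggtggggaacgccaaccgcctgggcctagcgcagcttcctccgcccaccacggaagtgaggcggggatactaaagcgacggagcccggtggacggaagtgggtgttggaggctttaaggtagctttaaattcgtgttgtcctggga
BRD2 promoter, chr6:32968344-32968643, plus strand: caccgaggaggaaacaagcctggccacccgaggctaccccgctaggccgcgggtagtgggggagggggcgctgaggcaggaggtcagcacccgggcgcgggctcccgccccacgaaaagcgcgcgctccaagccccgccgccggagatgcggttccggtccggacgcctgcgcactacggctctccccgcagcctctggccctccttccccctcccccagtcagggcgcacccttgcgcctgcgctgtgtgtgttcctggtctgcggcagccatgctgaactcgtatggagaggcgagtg

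CACGTG was found in a listed promoter of 6 of the 34 genes (17.6%, 6.76 to 34.5%), against 10.9% of all genes with a listed promoter. Among genes with a parental MYC peak it was in 5 of 24 elongation genes (20.8%, 7.13 to 42.2%), against 15.0% of all such genes, and among genes without a MYC peak in 1 of 10 (CDK7), against 8.03%. Among genes bound by MYC in the shMED30 line without doxycycline it was in 1 of 7 (MEPCE), against 22.5%. CACGCG was in 6 of the 34 as well, against 18.1% of all genes. It was in 5 of the 24 with parental MYC, against 25.7%, in 1 of the 10 without, against 12.8%, and in 3 of the 7 with MYC without doxycycline, against 29.4%. The distance between E-box and MYC summit differed widely between the genes. In MLLT1 the centre of CACGTG lay 3 bp from the summit of the parental peak and 20 bp from that of the doxycycline peak. In MEPCE it lay 26 bp downstream of the summit without doxycycline and at -49 bp from the parental one. It was 63 bp downstream of the parental summit in AFF4, 120 bp in CCNT1, and in SUPT16H it lay at -566 bp, upstream of it. A match describes these letters in this window and is no measure of binding.

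Kinases of the polymerase tail differed in whether they had MYC. The CDK-activating kinase of the initiation factor TFIIH is made of CDK7, its cyclin CCNH and the assembly factor MNAT1. MED30 and MED17 had peaks at all 3 genes and parental MYC at none. The MED30 folds were close together, at 5.84 for CDK7, 5.96 for CCNH and 5.76 for MNAT1 (percentiles 74.5 to 78.0), and the MED17 folds were 5.55, 5.05 and 4.57. Over the whole list 6 of 36 genes had both Mediator subunits without MYC (16.7%, 6.37 to 32.8%), against 7.80% of all genes. The other members of that class were HEXIM2, PAF1 and LEO1. Among genes with both subunits, MYC was present at 23 of 29 elongation genes (79.3%, 60.3 to 92.0%), against 80.0% of all such genes. A gene without a MYC peak can lie just under the calling threshold.

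P-TEFb genes had all of MED30, MED17 and parental MYC, as did 31.2% of all genes. At CDK9, its kinase, the folds were 5.52 for MED30, 6.49 for MED17 and 4.41 for parental MYC. At CCNT1, the main cyclin, they were 5.77, 5.52 and 5.65, and at CCNT2, the alternative cyclin, 5.97, 6.77 and 4.93. CDK12 and CDK13, which phosphorylate the tail later in the gene together with cyclin K, had some of the strongest Mediator peaks. MED30 reached a fold of 8.69 at CDK13 and 8.46 at CDK12 (percentiles 96.5 and 96.0). MED17 had a fold of 8.68 at CDK12 (97.5) but 4.47 at CDK13 (33.9). The CDK13 peak of MED17 was 2636 bp wide, with 58 fragments at its summit over a local background of 12.2, and that of MED30 was 1427 bp wide, with 86 over 9.02. Parental MYC had folds of 6.78 at CDK13 and 5.75 at CDK12. At CCNK, the gene of cyclin K, MYC was weak (3.51, percentile 16.7) and its summit lay at -967 bp, upstream of the start, while the MED30 peak (4.21) was at the start itself. The MYC and MED30 peaks did not overlap. MYC did overlap the weaker MED17 peak at CCNK (3.47), while the stronger one (6.12) was at 217 bp.

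**Figure D2:**
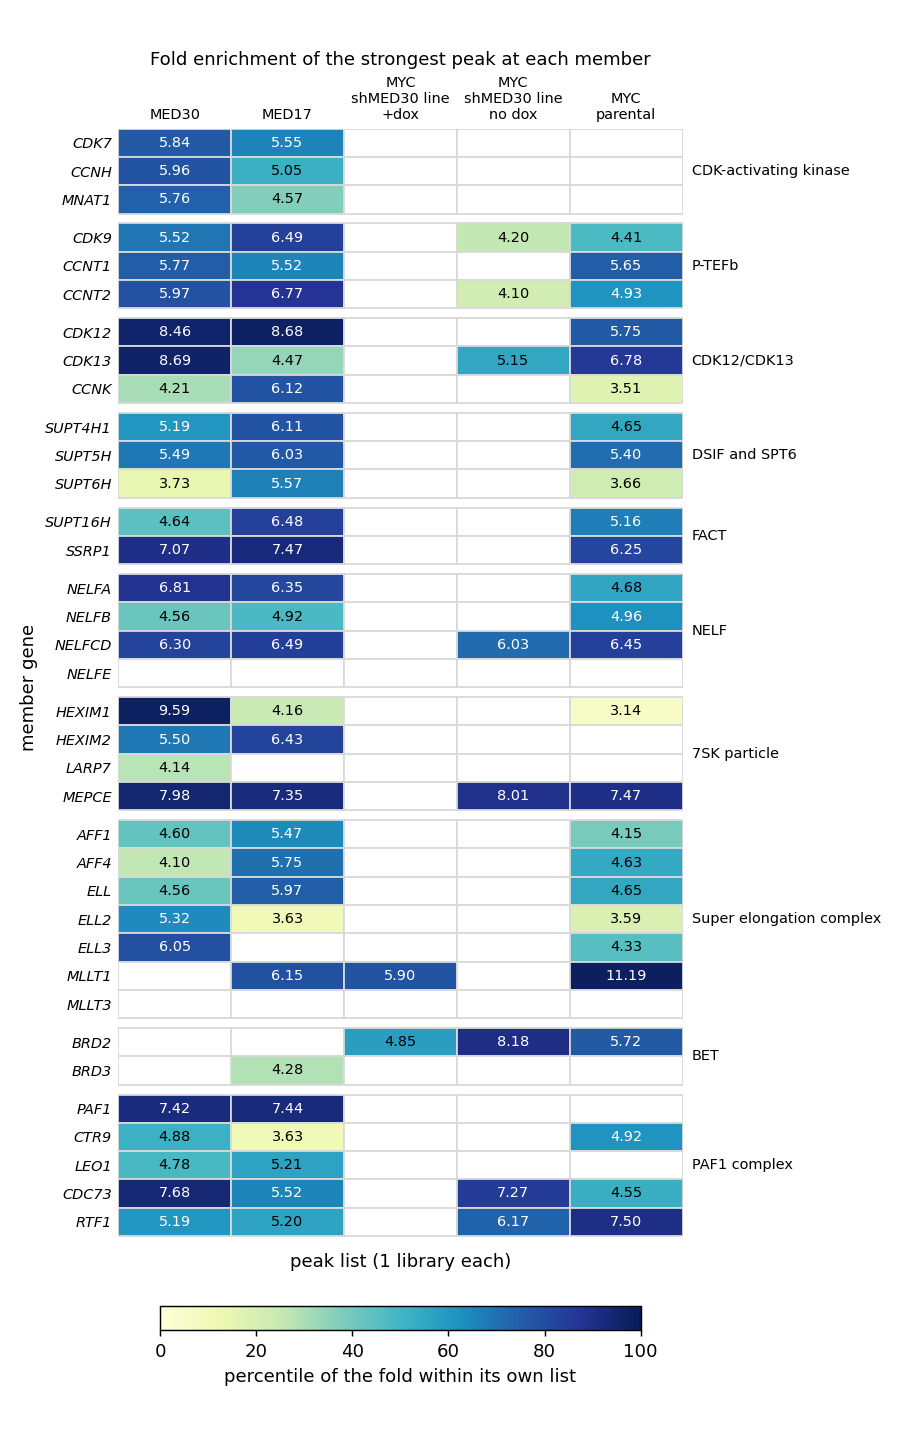
Fold enrichment of the strongest peak (number in each cell) at each elongation gene (rows, grouped by role) in each of the 5 lists (columns, 1 library each), coloured by the percentile of that fold within its own list. White cells have no peak within 1 kb of either gene end, as at all 3 genes of the CDK-activating kinase in the MYC columns and at NELFE and MLLT3 in every column.

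Genes for the factors that travel with the polymerase were bound in parental cells. SUPT4H1 and SUPT5H encode DSIF, SUPT6H a histone chaperone of elongating polymerase, and SUPT16H and SSRP1 the histone chaperone FACT. All 5 had MED30, MED17 and parental MYC (31.2% of all genes). None had a MYC peak in the shMED30 line, where few genes did (8.55% of all genes without doxycycline and 4.71% with it). SSRP1 was the strongest of them in each list, with folds of 7.07 for MED30, 7.47 for MED17 (percentile 93.0) and 6.25 for parental MYC. SUPT6H was the weakest for MED30 (3.73) and MYC (3.66). SUPT5H had folds of 5.49, 6.03 and 5.40, SUPT4H1 of 5.19, 6.11 and 4.65, and SUPT16H of 4.64, 6.48 and 5.16.

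Of the 4 NELF genes, NELFA, NELFB and NELFCD had all of MED30, MED17 and parental MYC (31.2% of all genes). NELFE had no peak in any list. NELFCD was the highest for MYC (6.45, percentile 83.6), with MED30 at 6.30 and MED17 at 6.49. At NELFA the folds were 6.81 for MED30, 6.35 for MED17 and 4.68 for MYC, and at NELFB 4.56, 4.92 and 4.96. NELFE lies on chromosome 6, 31952087 to 31958971, in the major histocompatibility region. Peaks of MED30, MED17 or parental MYC were found at 10 of the 88 protein-coding genes within 1 Mb of it (11.4%), against 52.3% of all genes. Alternate contigs of chromosome 6, many of which carry other versions of this region, held 50 MED30, 65 MED17 and 33 parental MYC peaks. The part of read mapping in the absence of NELFE peaks was not tested.

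The 7SK particle keeps P-TEFb inactive: HEXIM1 and HEXIM2 inhibit the kinase, LARP7 binds the 7SK RNA and MEPCE caps it. HEXIM1 had the highest MED30 fold of all 36 genes (9.59, percentile 97.9), with 131 fragments at the summit over a background of 12.8. Its MED17 peak was broad (2567 bp) with a fold of 4.16, and its MYC peak was the weakest of the 26 (3.14, percentile 6.08), at -932 bp from the start. HEXIM2 had MED30 (5.50) and MED17 (6.43) without MYC. Both peaks lay inside the gene, with summits 1284 and 906 bp from its outer start, and overlapped its second listed promoter and not the first. LARP7 had a weak MED30 peak (4.14, percentile 27.4) and no other. MEPCE was strong in every list except that with doxycycline, with folds of 7.98 for MED30, 7.35 for MED17, 8.01 for MYC without doxycycline and 7.47 for parental MYC (percentiles 89.4 to 94.8). At RN7SK (chromosome 6, 52995620 to 52995951), the gene of the 7SK RNA, MED30 had a fold of 7.62 (93.5), MED17 of 4.88 (47.1) and parental MYC peaks of 4.75 and 3.99. Neither list of the shMED30 line had a peak there.

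In the super elongation complex, AFF1 and AFF4 are scaffolds, ELL, ELL2 and ELL3 speed up the polymerase, and MLLT1 and MLLT3 read acylated histones. Parental MYC had a peak at 6 of the 7 genes (39.0% of all genes). All of MED30, MED17 and parental MYC were at AFF1, AFF4, ELL and ELL2 (31.2% of all genes). Their MYC folds were modest, from 3.59 at ELL2 to 4.65 at ELL. AFF1 had its strongest Mediator peaks inside the gene, at its second listed promoter (MED30 9.35, percentile 97.6, and MED17 7.91, percentile 95.2), against 4.60 and 5.47 at the gene start. MYC had a peak at the AFF1 gene start (4.15) and none at the inner promoter. ELL3 had MED30 (6.05) and MYC (4.33) without MED17, and its promoter is shared with SERF2.

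MLLT1, whose protein is a chromatin reader of the complex, had the strongest parental MYC peak of all 36 genes, with a fold of 11.19 (percentile 98.1) and 75 fragments at its summit. This peak covered the E-box of the printed promoter and overlapped no Mediator peak. MED17 had a peak in the first kb of the gene (6.15), and the nearest MED30 peak was 81.3 kb from the gene ends. MLLT3, its close relative, had no peak in any list. It lies on chromosome 9 in a stretch of 6.98 Mb (19524357 to 26499706) that holds 27 protein-coding genes and no peak of any of the 5 lists. The copy number of this stretch in these cells was not tested.

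The BET genes had little Mediator. BRD2 had MYC peaks in all 3 MYC lists (fold 4.85 with doxycycline, 8.18 without, 5.72 in parental cells) and no peak of MED30 or MED17 at its ends. It was the sole elongation gene with MYC and no Mediator peak there (1 of 36, 2.78%, 0.0703 to 14.5%), against 1.70% of all genes. A weak MED30 peak (3.23, percentile 4.14) lay 2.51 kb inside the gene, near 2 of its inner promoters. BRD2 also lies in the major histocompatibility region, and 12 of 63 genes within 1 Mb of it had a peak of MED30, MED17 or parental MYC (19.0%). BRD3 had a MED17 peak (4.28) and no other.

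The PAF1 complex travels with elongating polymerase, and its genes on this list are PAF1, CTR9, LEO1, CDC73 and RTF1. All 5 of these listed genes had both MED30 (41.7% of all genes) and MED17 (47.9%). CTR9, CDC73 and RTF1 had parental MYC (39.0% of all genes). RTF1 had the second highest MYC fold of the 36 genes (7.50, percentile 90.5), with MED30 at 5.19 and MED17 at 5.20. CDC73 had 7.68 for MED30 (93.8), 5.52 for MED17 and 4.55 for MYC. PAF1 had MED30 and MED17 folds of 7.42 and 7.44 (92.4 and 92.8) with no parental MYC peak within 11.3 kb of its ends. CTR9 had a low MED17 fold (3.63) and MED30 and MYC folds of 4.88 and 4.92, and LEO1 had MED30 at 4.78 and MED17 at 5.21.

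MYC peaks at these genes mostly overlapped Mediator. The strongest MYC peak overlapped a MED30 peak at 21 of 26 genes (80.8%, 60.6 to 93.4%), against 79.8% of all genes with parental MYC. It overlapped a MED17 peak at 23 (88.5%, 69.8 to 97.6%), against 87.4%. The exceptions were CCNK, ELL, ELL2, MLLT1 and BRD2 for MED30, and ELL3, MLLT1 and BRD2 for MED17. With a reciprocal overlap of at least 50%, the counts were 16 for MED30 and 12 for MED17. The share over all genes was not computed for that overlap.

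The summits of MED30 and MED17 were set apart along the genes. With positions inside the gene counted as positive, the median summit lay at -20 bp for MED30 (range -850 to 1284 bp), 248 bp for MED17 (-554 to 1303 bp) and -29 bp for parental MYC (-967 to 585 bp). Over all genes with a peak near the start the medians were 1, 210 and 35 bp in the same order, so most of the offset between the subunits was also present there. Of the 29 MED17 summits 27 were inside the gene, the exceptions being CCNT1 and SUPT5H, whereas 13 of 29 MED30 summits and 11 of 24 MYC summits were. The share of summits inside the gene was not computed over all genes. Where the strongest peaks of the subunits overlapped, MED17 lay downstream of MED30 at 22 of 26 genes (84.6%), by a median of 272 bp, against 67.5% and 147 bp over 6270 protein-coding genes. At CDK9, for example, the summits were 66 bp inside the gene for MED30, 351 bp for MED17 and 463 bp for MYC. Each summit comes from 1 library, so its error between libraries is unknown.

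**Figure D3:**
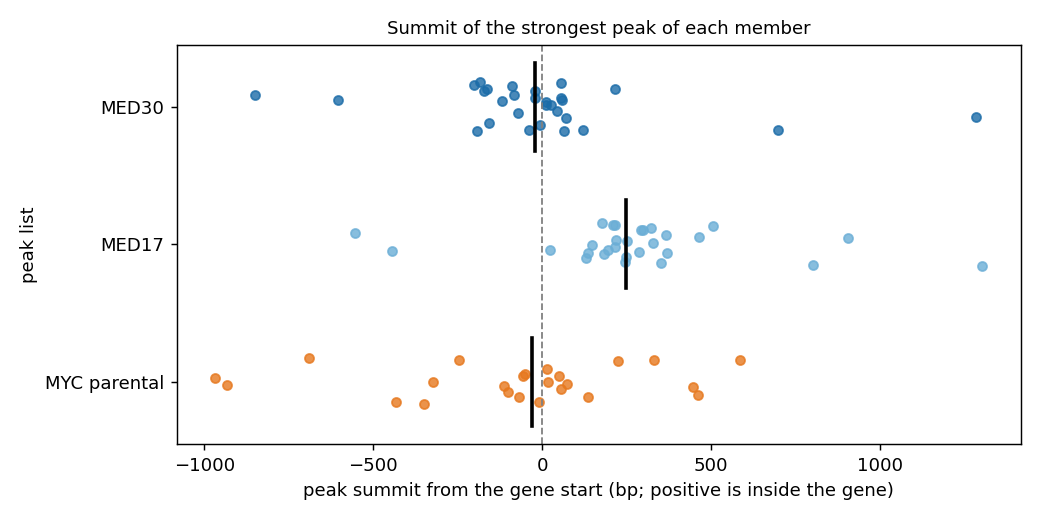
Distance of the summit of the strongest peak from the gene start (x axis, bp, positive inside the gene) at each elongation gene with known strand, for MED30, MED17 and parental MYC (1 point per gene, vertical scatter for display). Black bars are medians, at -20 bp for MED30, 248 bp for MED17 and -29 bp for MYC.

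In the shMED30 line, MYC peaks were few. MYC had a peak at 2 of the 36 genes with doxycycline (5.56%, 0.680 to 18.7%), against 4.71% of all genes, and at 8 without doxycycline (22.2%, 10.1 to 39.2%), against 8.55%. Those with doxycycline were MLLT1 and BRD2, and those without were CDK9, CCNT2, CDK13, NELFCD, MEPCE, BRD2, CDC73 and RTF1. All 8 peaks without doxycycline overlapped a parental MYC peak, as did those of 93.0% of all genes with a peak there. Of the 26 genes with parental MYC, 8 had a peak in the shMED30 line without doxycycline (30.8%, 14.3 to 51.8%), against 20.9% of all such genes. By background pileup the library without doxycycline was 0.121 times as deep as the parental one.

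The comparison of doxycycline with no doxycycline asks how MYC binding stands after induction of the hairpin. BRD2 alone kept its peak, with a fold of 4.85 and 5 fragments at the summit with doxycycline, against 8.18 and 14 fragments without. The other 7 genes had no overlapping peak with doxycycline. Their folds without it were 8.01 at MEPCE (13 fragments), 7.27 at CDC73 (10), 6.17 at RTF1 (8), 6.03 at NELFCD (10), 5.15 at CDK13 (8), 4.20 at CDK9 (5) and 4.10 at CCNT2 (6). Keeping 1 of 8 (12.5%) has an interval of 0.316 to 52.7%, which includes the 33.5% kept over all genes with a peak without doxycycline.

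The libraries with and without doxycycline differed in depth, and over all genes the share of kept peaks rose with fold. Background pileup with doxycycline was 0.600 times that without it. Multiplied by that ratio the 7 summits without a kept peak come to 3.00 to 7.80 fragments, where the lowest summit in the doxycycline list has 3 and the median 6. Over all genes, 10.3% kept a peak in the lowest of 3 bins by fold without doxycycline (3.33 to 5.21), 28.4% in the middle bin and 61.8% in the highest (6.75 to 17.5). CDK9, CCNT2 and CDK13 were in the lowest bin and NELFCD and RTF1 in the middle one, with 0 of 3 and 0 of 2 kept (intervals up to 70.8% and 84.2%). BRD2, MEPCE and CDC73 were in the highest bin, where 1 of 3 was kept (33.3%, 0.840 to 90.6%). The part of depth in the 7 absent peaks was not tested. Knockdown could not be checked from these files, as MED30 mRNA and protein were not analysed here.

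MLLT1 was the converse case: MYC had a peak there with doxycycline (fold 5.90, 6 fragments), the nearest peak in the list without it was 101 kb away, and parental cells had the fold of 11.19 given above. A peak with doxycycline and none without it was seen at 1 of 36 genes (2.78%, 0.0703 to 14.5%), against 1.74% of all genes. The parental summit of 75 fragments, multiplied by the depth ratio of 0.121, comes to 9.08 fragments, and the lowest summit in the list without doxycycline has 4. The same scaling gives 2.42 to 7.99 fragments at the 8 genes with a peak in that list, whose summits held 5 to 14, and 2.42 against 14 at BRD2. These 8 genes were picked for having a called peak, so they cannot show how well the scaled value predicts a summit. The part of depth in the missing MLLT1 peak was not tested. Neither gene with a MYC peak under doxycycline, MLLT1 or BRD2, had a MED30 peak within 1 kb of its ends in parental cells, although BRD2 had the inner one given above. Of the 7 genes without a kept peak, the MYC peak without doxycycline overlapped parental MED30 at 6, and at RTF1 it did not. Over all genes, 41.7% had a MED30 peak within 1 kb of an end. The strongest parental MYC peak overlapped MED30 at 79.8% of all genes with parental MYC. Matching shares over all genes with a doxycycline peak, or without a kept peak, were not computed. The counts here are of 2 and 7 genes in libraries without replicates.

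**Figure D4:**
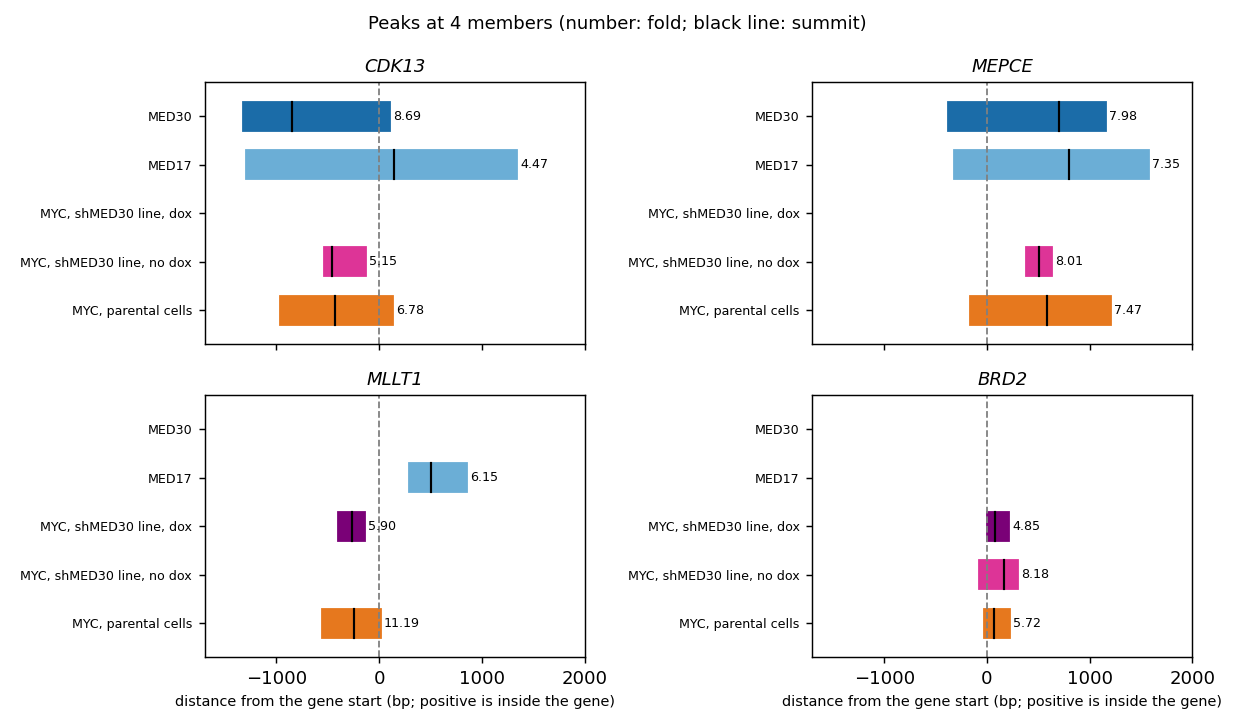
Peaks at CDK13, MEPCE, MLLT1 and BRD2 by distance from the gene start (x axis, bp, positive inside the gene) in each of the 5 lists (rows). Boxes span the peaks, black lines mark summits and numbers give the fold. CDK13 and MEPCE have MED30 and MED17 boxes and no doxycycline MYC box. MLLT1 has a MED17 box (6.15) and no MED30 box, and BRD2 has neither, and both have a doxycycline MYC box. The genes shown are examples. RTF1, whose MYC peak without doxycycline did not overlap MED30 and was not kept with doxycycline, is not shown.

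**Figure D5:**
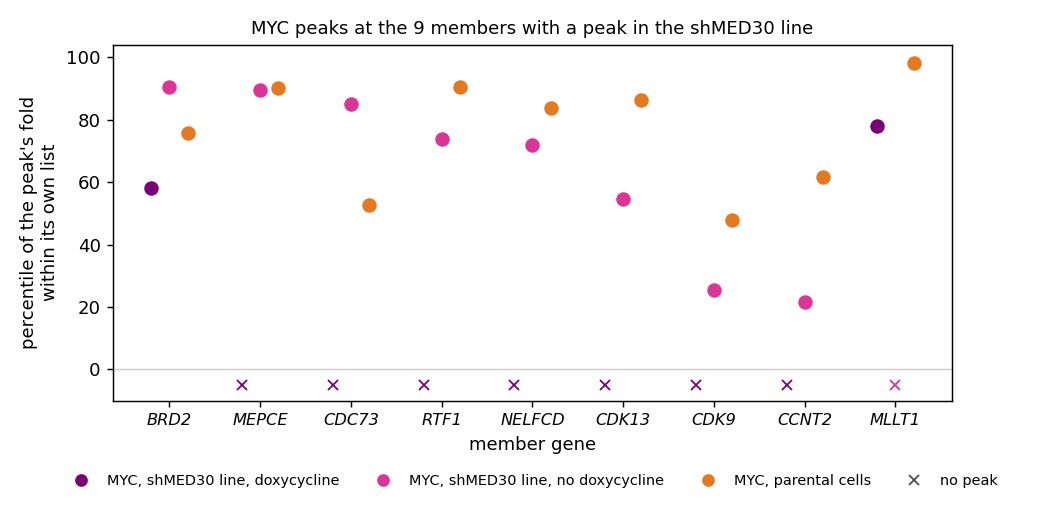
Percentile of the MYC peak's fold within its own list (y axis) at the 9 elongation genes with a peak in the shMED30 line (x axis), with doxycycline, without it, and in parental cells. Crosses below 0 mark a list without a peak: 7 genes lack the doxycycline peak, and MLLT1 lacks the one without doxycycline.

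Of a list of 36 further elongation factors, 35 were matched in the table. Of these 26 had MED30 (41.7% of all genes), 28 MED17 (47.9%), 26 parental MYC (39.0%) and 21 all of MED30, MED17 and MYC (31.2%). The highest parental MYC folds were at NCBP2 (9.97), a subunit of the cap-binding complex, CHD1 (8.36), a chromatin remodeller, and RNMT (8.21), the cap methyltransferase. In the shMED30 line 6 of the 35 had a MYC peak without doxycycline (8.55% of all genes).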

How the data were processed

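MED30, MED17 and MYC were mapped by ChIP-seq in 5 libraries of MIA PaCa-2 cells, 1 per group, with paired reads of 100 bp, per the labels' protocols. Tools named in the submitters' processing notes are MACS2, Bowtie2, Trim Galore and deepTools, with hg38 as the build. No version is given in the sources used here, nor whether an input was used. The deposited lists, 1 per library, are in narrowPeak layout. The fold of each peak is a ratio the authors deposited. The authors also deposited −log10 p and −log10 q per peak, and a score, which is 10 times −log10 q rounded down. The summit of each peak is deposited as an offset. The lists include peaks with q up to 0.050 (MED30, parental MYC), 0.049 (MED17), 0.098 (doxycycline) and 0.099 (no doxycycline).

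Gene ends came from RefSeq (GRCh38.p14), and strand and promoter sequences from its promoter table, which matched 34 of the 36 genes. A peak within 1 kb of either end was counted for a gene, the strongest by fold described it, and overlap means at least 1 shared bp. Summit pileup and background were recovered from fold and p, if fold is (pileup + 1)/(background + 1) and p a Poisson tail, with a match within 0.002 log10 units for 99.3% to 99.8% of peaks. Shares over all protein-coding genes are the background. The code was tested on simulated data. Python 3.11.15, pandas 2.3.3, numpy 2.4.6 and scipy 1.17.1 were used.

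The genes and lists were chosen with earlier results of these data known. The genes named were all members with a peak in the shMED30 line, the 5 highest folds per parental list, members with MYC and no Mediator or with no peak, and the 3 highest MYC folds of each other list; the remaining members are given with their folds.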

Additional observations from a re-analysis of the deposited data

How the results depend on the processing

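The counts of elongation genes were recomputed under these alternatives: a window of 500 bp or 2 kb, the gene start alone, q of 0.01 or less, the upper 50% of each list by fold, peak centres within 250 bp, a reciprocal overlap of 50%, the 4621 strongest peaks of each list, and any doxycycline peak in the window. Of 66 recomputed counts 57 stayed within 1.5 times the reported one and 9 did not. With the upper 50% by fold, MED30, MED17 and parental MYC were together at 11 genes (8.46% of all genes). Parental MYC was then at 19 genes, and its strongest peak overlapped MED30 at 13 and MED17 at 14. With 4621 peaks per list, MED30 was at 19 genes, MED17 at 20, parental MYC at 10 and all of them at 6 (3.76% of all genes). Fewer peaks enter both settings. MYC overlapped MED17 at 14 genes with centres within 250 bp and at 12 with a reciprocal overlap of 50%, where the cause was not tested. Shares over all genes were not computed for the recomputed overlap counts. BRD2 was the single gene that kept its MYC peak in every setting run. No paired analysis was possible because each group has 1 library.

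The shMED30 libraries limit what can be said: summits there rest on 5 to 14 fragments, and a missing peak can be a site under the calling threshold.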

Other observations

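Integrator, a complex that cleaves nascent RNA and ends early elongation at many genes, was looked at in the same way. All 15 of its subunit genes had a peak of MED30, MED17 or parental MYC: 13 had MED30 (41.7% of all protein-coding genes did), 14 had MED17 (47.9%), 13 had parental MYC (39.0%) and 10 had all of them (31.2%). The highest parental MYC folds were at INTS1 (7.67), INTS12 (6.45) and INTS10 (5.96). In the shMED30 line, among genes named after their values were seen, INTS7 (4.85) and INTS11 (5.15) had a MYC peak with doxycycline and none without it, and INTS1 (6.78) had one without doxycycline and none with it. These shares were not set against expressed genes.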
